A study of Mus musculus with 12 samples.

Results

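The genes described here are 7 neighbours on mouse chromosome 9, Limd1, Sacm1l, Ccr9, Lztfl1, Fyco1, Cxcr6 and Xcr1, among 27457 gene symbols of which 26938 had a count. They were chosen by position around Lztfl1, which had been selected on these same tumors because its macrophage level differed between mouse strains that responded to anti-PD-1 (aPD1) and strains that did not. That difference is given as a description with no test. The tests concern other contrasts, though these too were chosen with earlier results of these data known. They are aPD1 against isotype and the difference in that effect between the classes of strains. The others are strains of the same class against each other and the strains without a class. A gene chosen for a clear class difference may vary little within a class, so the test within classes is not free of the choice.

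Single-cell RNA sequencing measured transcripts in 48 tumors of MC38, a colon carcinoma line of C57BL/6J (B6) origin, grown under the skin of female mice aged 8 to 12 weeks. Hosts were B6 mice or the F1 offspring of B6 and a Collaborative Cross strain, 1 of a panel of recombinant inbred mice bred from several founder strains, so that every F1 host carried a B6 copy of this locus beside a Collaborative Cross copy. The strains that the study classed as responders were C57BL/6J x CC001/UncJ (8 tumors), C57BL/6J x CC002/UncJ (6) and C57BL/6J x CC075/UncJ (6), and those classed as non-responders were C57BL/6J x CC036/UncJ (6 tumors), C57BL/6J x CC079/TauUncJ (6) and C57BL/6J x CC080/TauUncJ (6). B6 (6 tumors) and C57BL/6J x CC007/UncJ (4) had no class. Each strain is called by its Collaborative Cross number below. Mice received 200 µg of isotype control or aPD1 antibody once, and tumors were taken 48 h later and sorted to 90% CD45+ and 10% CD45- cells. Each of 12 pools was 1 library of 4 hashtagged tumors from 2 strains, with both treatments of each, and the replicate was the tumor.

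Levels are counts per 1000000 (CPM) of the unique molecular identifiers (UMIs, 1 per captured transcript) summed over the cells of a tumor. The 93126 cells had a median of 3333.5 UMIs, and tumors ranged from 53 to 3082 cells and from 88816 to 17713491 UMIs. Of the cell barcodes, 4990 occurred in more than 1 pool, in 10176 cells. In all, 5 tumors stood apart and were also left out as an alternative. The B6 isotype tumor of pool 7 (345 cells), the CC002 isotype tumor of pool 12 (248 cells) and the CC007 aPD1 tumor of pool 6 (53 cells) had fewer than 500 cells. In CC080, a pool 3 isotype tumor and a pool 4 aPD1 tumor carried the same animal identifier. Isotype and aPD1 tumors never shared a hashtag, so tag and treatment cannot be told apart. Of the responder tumors, 18 of 20 carried the first pair of tags, and of the non-responder tumors 16 of 18 carried the second pair.

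The 7 genes span 383.3 kb, from 123478706 to 123862029 on chromosome 9 of GRCm38 (GENCODE vM21 positions). Limd1 (123478706 to 123521552, plus strand) encodes a LIM domain scaffold that binds Hippo pathway kinases and the VHL complex. Sacm1l (123529759 to 123592600, plus strand) encodes the SAC1 phosphatase, which removes phosphate from phosphatidylinositol 4-phosphate (PI4P) at the endoplasmic reticulum and Golgi. Lztfl1 (123694416 to 123717697, minus strand) encodes a leucine zipper protein that regulates transport of the BBSome, the complex that carries membrane proteins through the cilium. Fyco1 (123789500 to 123851899, minus strand) encodes an adaptor that links autophagosomes and late endosomes to kinesin. The other members are chemokine receptors: Ccr9 (123678439 to 123784330, plus strand) binds CCL25 and is known from gut-homing lymphocytes and plasmacytoid dendritic cells, Cxcr6 (123806475 to 123811760, plus strand) binds CXCL16 and is known from effector and tissue-resident T cells, and Xcr1 (123852315 to 123862029, minus strand) binds XCL1 and marks type 1 conventional dendritic cells. The Ccr9 gene spans Lztfl1 on the opposite strand, and Cxcr6 lies inside Fyco1 on the opposite strand. Whether counting used strand is not given in the sources used here, so reads of these overlapping pairs may not be fully separated.

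The promoters of Lztfl1, Fyco1 and Cxcr6 are shown because these are the members whose levels by strain and class are described most fully. RefSeq windows of 300 bases (250 before and 50 after the start, GRCm38.p6) were found for 6 of the 7 members, all but Limd1. Capitals mark copies of CCATTGGCAAC and TCACGTGA in the Lztfl1 window (chr9:123717576-123717875, minus strand) and of CATGCCGGGAG in the Fyco1 window (chr9:123851850-123852149, minus strand). The Cxcr6 window (chr9:123806227-123806526, plus strand) held none of them. The sequences run 5′ to 3′ along each gene's own strand.
Lztfl1: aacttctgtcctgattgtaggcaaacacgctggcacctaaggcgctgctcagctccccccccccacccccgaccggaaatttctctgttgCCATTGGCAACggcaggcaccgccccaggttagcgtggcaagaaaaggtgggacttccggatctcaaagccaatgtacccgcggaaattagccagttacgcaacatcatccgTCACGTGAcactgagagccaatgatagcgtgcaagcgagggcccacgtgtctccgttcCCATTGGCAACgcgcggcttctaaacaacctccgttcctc
Fyco1: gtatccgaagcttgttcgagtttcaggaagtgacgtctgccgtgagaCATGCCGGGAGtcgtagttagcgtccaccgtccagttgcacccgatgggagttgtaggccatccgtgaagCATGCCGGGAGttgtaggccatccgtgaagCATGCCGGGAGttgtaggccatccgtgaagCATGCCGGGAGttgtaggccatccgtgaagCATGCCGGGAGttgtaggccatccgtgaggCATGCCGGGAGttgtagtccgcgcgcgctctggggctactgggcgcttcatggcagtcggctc
Cxcr6: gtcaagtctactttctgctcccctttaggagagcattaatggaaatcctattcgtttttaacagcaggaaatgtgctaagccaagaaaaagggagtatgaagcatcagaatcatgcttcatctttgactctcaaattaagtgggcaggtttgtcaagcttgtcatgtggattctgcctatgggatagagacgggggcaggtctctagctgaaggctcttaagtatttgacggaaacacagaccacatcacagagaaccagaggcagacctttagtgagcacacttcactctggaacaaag
CCATTGGCAAC and CATGCCGGGAG are the words of 11 bases with the most copies in their windows (the first where several tied), and TCACGTGA was picked after the sequences had been read, so the counts, made on both strands, are descriptions. The Lztfl1 window was the only 1 of 32851 promoter windows with 2 copies of CCATTGGCAAC, which 6 windows (0.0183%) held at all, and TCACGTGA occurred in 320 windows (0.974%). The Fyco1 window held 6 copies of CATGCCGGGAG and was the only 1 with more than a single copy, and 26 windows (0.0791%) held the word at all. A second RefSeq start of Fyco1, whose window (chr9:123851612-123851911) is not shown, had no copy. Lztfl1 and Fyco1 had 21 and 25 CG pairs and Cxcr6 had 3, against a median of 7 over all windows.

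Each chemokine receptor was concentrated in 1 cell type, while the other 4 members were found across the clusters. Clusters were named from markers. The macrophage-like clusters (68059 cells, called macrophages from here on) and the T/NK-like clusters (11486 cells) were the largest classes. Cluster 6 was cDC1-like (1312 cells), cluster 14 cDC2-like (4981), cluster 11 like migratory dendritic cells (1524), cluster 18 like plasmacytoid dendritic cells (pDC, 458) and cluster 22 fibroblast-like (582), and clusters 12, 16, 20 and 25 were left unnamed (4724). Levels of genes across clusters describe the same cells that were clustered, and no test was made of them.

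**Figure D1:**
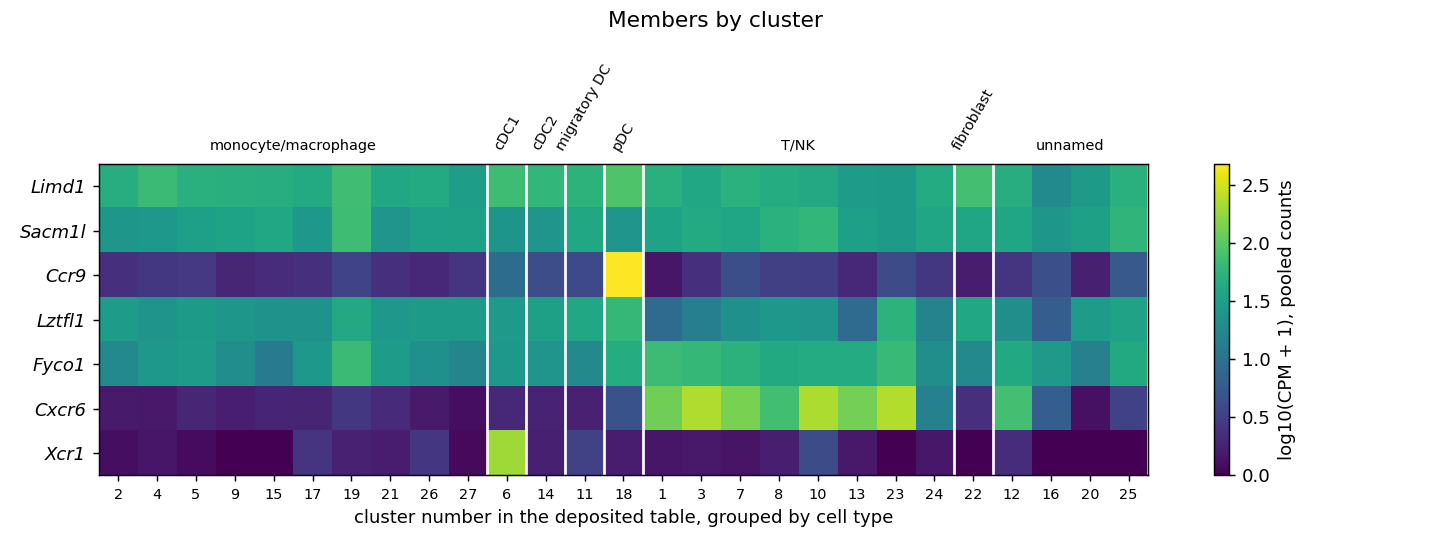
Level of each member (rows, in the order of their positions on the chromosome) in each cluster (columns, grouped by cell type), as log10(CPM + 1) of counts pooled over all tumors. Ccr9 is brightest in cluster 18, Xcr1 in cluster 6 and Cxcr6 in the T/NK-like clusters other than 24 and in unnamed cluster 12, while Limd1, Sacm1l, Lztfl1 and Fyco1 are found throughout.

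Cxcr6 belonged to the T/NK-like cells, which held 90.5% of its UMIs. Pooled levels of Cxcr6 were 236 CPM in cluster 23, 228 in cluster 3, whose leading genes include Cd8a, Cd8b1 and Pdcd1, and 221 in cluster 10, whose leading genes include Il13 and Cd4. They were 136 in cluster 7, 131 in cluster 13, 123 in cluster 1 and 72.8 in cluster 8, the cluster with the most Foxp3, a marker of regulatory T cells. Cluster 24, with the most of the NK cell gene Ncr1, had 14.2 CPM of Cxcr6 and macrophages 0.671. In cluster 3, 44.4% of cells had a Cxcr6 UMI (median depth 2823 UMIs), against 0.344% of the fibroblast-like cluster 22 (median 4199.5). Over 47 tumors the T/NK level of Cxcr6 ranged from 40.7 to 296 CPM with a median of 127. The lowest value rests on 2 Cxcr6 UMIs, and the highest is the doubted B6 isotype tumor of pool 7.

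Xcr1 belonged to cDC1-like cluster 6 with 86.8% of its UMIs, and Ccr9 to pDC-like cluster 18 with 52.4%. Xcr1 had 197 CPM in cluster 6, where 53.2% of cells had a UMI (median depth 6575.5) against 0.178% in cluster 3 (median 2823). Over 27 tumors it ranged from 99.2 to 365 CPM with a median of 184. Each of the 27 tumors thus had Xcr1 far above the background of cluster 3. Ccr9 had 477 CPM in cluster 18, where 64.0% of cells had a UMI (median depth 3004.5) against 0.392% in cluster 3, and it ranged from 413 to 676 CPM over the 6 tumors with enough pDC-like cells. The naming of clusters 6 and 18 did not use Xcr1 or Ccr9.

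The ligands of these receptors sat in other cells. Cxcl16, the ligand of CXCR6, had 676 CPM in migratory dendritic cells and 381 in macrophages, which held 88.6% of its UMIs, against 4.09 in T/NK-like cells. Xcl1, the ligand of XCR1, had 5482 CPM in cluster 13 and 2448 in cluster 24, and T/NK-like cells held 94.4% of its UMIs. Ccl25, the ligand of CCR9, stayed between 5.83 and 18.6 CPM in every cell type. Cxcr6 and Xcr1 and their ligands thus lay in different cell types, while Ccl25 had no cell type that stood out.

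Of the broadly found members, Fyco1 was higher in T/NK-like cells (48.4 CPM pooled) than in macrophages (22.5), and Lztfl1 was lower (17.6 against 27.9). Fyco1 ranged over clusters from 11.6 CPM in cluster 15 to 68.4 in cluster 1. Lztfl1 ranged from 5.33 CPM in cluster 16, whose leading genes are granulocytic, to 59.5 in pDC-like cells, with 7.67 in cluster 13, 7.70 in cluster 1 and 13.4 in cluster 3. The lowest of these rest on few Lztfl1 UMIs. Cluster 16 had 1 in responder, 2 in non-responder and 0 in unclassed tumors. In the same order cluster 13 had 8, 4 and 3, and cluster 1 had 11, 4 and 2. Limd1 had 44.9 CPM in macrophages, 42.9 in T/NK-like cells and 70.2 in cDC1-like cells. Sacm1l had 29.5 CPM in macrophages and 42.0 in T/NK-like cells.

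Over the 27 clusters, as points that share libraries and depth, the levels of Fyco1 and Cxcr6 had a Pearson r of 0.74, the highest of any pair of members, and those of Lztfl1 and Cxcr6 had r = -0.38. The gene most like each member over the 27 clusters was Bcl11b for Cxcr6 (r = 0.99), Foxr1 for Ccr9 (0.94), Ppp4r3b for Fyco1 (0.87), Gpr141b for Xcr1 (0.85), Slc46a3 for Limd1 (0.81), Zmynd8 for Lztfl1 (0.78) and Tnrc6a for Sacm1l (0.75). These values describe 27 points and carry no test.

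In macrophages, Lztfl1 was higher in tumors of responder strains than in tumors of non-responder strains, with hardly any overlap. In CC001 it ranged from 27.8 to 45.6 CPM with a median of 31.4, in CC002 from 29.1 to 41.1 with a median of 37.1, and in CC075 from 24.4 to 43.5 with a median of 35.0. In CC036 it ranged from 17.4 to 23.0 CPM with a median of 20.5, in CC079 from 20.7 to 27.5 with a median of 23.8, and in CC080 from 22.2 to 24.5 with a median of 23.1. Of the 20 responder tumors, 19 lay above all 18 non-responder tumors, the exception being the CC075 isotype tumor of pool 9 at 24.4 CPM.

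Of the strains without a class, B6 had no tumor above the highest non-responder tumor in Lztfl1, while CC007 had a pair above it. B6 ranged from 16.3 to 26.5 CPM with a median of 21.8. The CC007 tumors had 21.5 and 27.9 CPM after isotype and 21.5 (1 UMI, in the tumor of 53 cells) and 29.2 after aPD1. The CC007 tumors at 27.9 and 29.2 CPM exceeded all non-responder tumors (highest 27.5). As mean ± SD, macrophage Lztfl1 was 32.5 ± 5.73 CPM (n = 8) in CC001, 36.4 ± 4.87 (n = 6) in CC002, 35.3 ± 7.49 (n = 6) in CC075, 20.4 ± 2.03 (n = 6) in CC036, 23.8 ± 2.57 (n = 6) in CC079, 23.3 ± 0.911 (n = 6) in CC080 and 21.3 ± 3.92 (n = 6) in B6. The 3 responder strains differed from each other by less than the SD within CC075, and the gap to CC079, the highest non-responder strain, exceeded the SD of every strain.

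**Figure D2:**
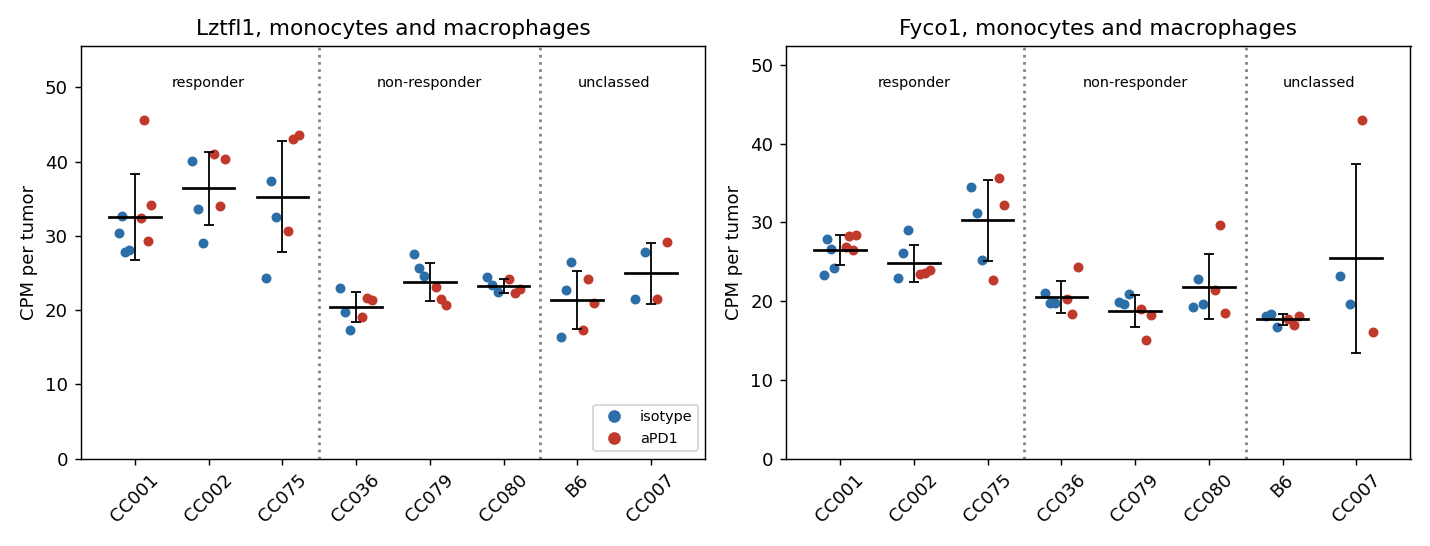
Macrophage level of Lztfl1 (left) and Fyco1 (right) in CPM, 1 point per tumor (blue isotype, red aPD1), by strain, with the mean and SD of each strain. For Lztfl1 the responder tumors lie between 24.4 and 45.6 CPM and the non-responder tumors between 17.4 and 27.5, and the highest Fyco1 point is the CC007 tumor of 53 cells.

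The fitted class difference of Lztfl1 in macrophages was 0.69 ± 0.07 (SE) on the log2 scale, as the mean of the responder strains minus that of the non-responder strains. The SEs of class differences, here and below, come from the spread among tumors of the same strain and treatment. They leave out the spread between strains of a class. Of 13010 genes tested, 351 had a larger value. With pool as a block the value was 0.65. In 8 pools a responder and a non-responder strain shared a library, which gave 16 pairs of tumors of the same treatment, and Lztfl1 was higher in the responder tumor of all 16, by 0.14 to 1.06 with a median of 0.50 on the log2(CPM + 1) scale. In these pools the responder tumors always carried the first pair of hashtags. In the 4 classed tumors with the pairs exchanged, Lztfl1 was 29.1 CPM (isotype) and 40.4 (aPD1) in CC002 of pool 12, and 23.0 (isotype) and 19.1 (aPD1) in CC036 of pool 8. The CC002 isotype tumor among them is the doubted one of 248 cells, and the part of the tags in the class difference was not tested. The values rest on a median of 162 Lztfl1 UMIs per tumor in macrophages (1 to 460).

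Markers of other cells were low in the macrophage sums. The summed level of the cDC1 genes Clec9a and Xcr1 had a median of 8.78 CPM (1.01 to 24.4) in responder and 3.04 (1.23 to 14.0) in non-responder tumors. That of the T cell genes Cd3e, Cd3d and Cd3g was 4.40 CPM (0.353 to 21.9) against 2.66 (0.727 to 11.0), and the MC38 keratins Krt8 and Krt18 had a median of 0 in both. The macrophage genes Lyz2, C1qa and Cd68 summed to medians of 7310 and 7802 CPM. The part of these other cells in the class difference was not tested.

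Lztfl1 was higher in responder tumors in most macrophage clusters and in dendritic cells, but not in the summed T/NK-like cells. Of the 10 macrophage clusters, pooled by class, Lztfl1 was higher in responder tumors in 9, by up to 0.91 (log2) in cluster 4 (34.4 against 17.8 CPM), and lower in cluster 15, by -0.39 (17.4 against 23.1 CPM), which had 12 and 51 Lztfl1 UMIs. Within pools it was higher in the responder tumor in 6 of 7 pairs in cDC1-like cells, 12 of 15 in cDC2-like cells and 9 of 12 in migratory dendritic cells. In T/NK-like cells it was higher in 5 of 16 pairs with a median log2 difference of -0.51, and the fitted class difference was -0.37 ± 0.21 (SE). Pooled by class, Lztfl1 was higher in responder tumors in 3 of the 5 T/NK-like clusters with at least 30 Lztfl1 UMIs, from -0.54 in cluster 3 to 0.70 in cluster 24 (log2), and cluster 3, low in Lztfl1, made up more of the T/NK-like cells of responder strains. The T/NK values of Lztfl1 rest on a median of 11 UMIs per tumor, against 162 in macrophages. A difference between cell types in the class effect was not tested.

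**Figure D3:**
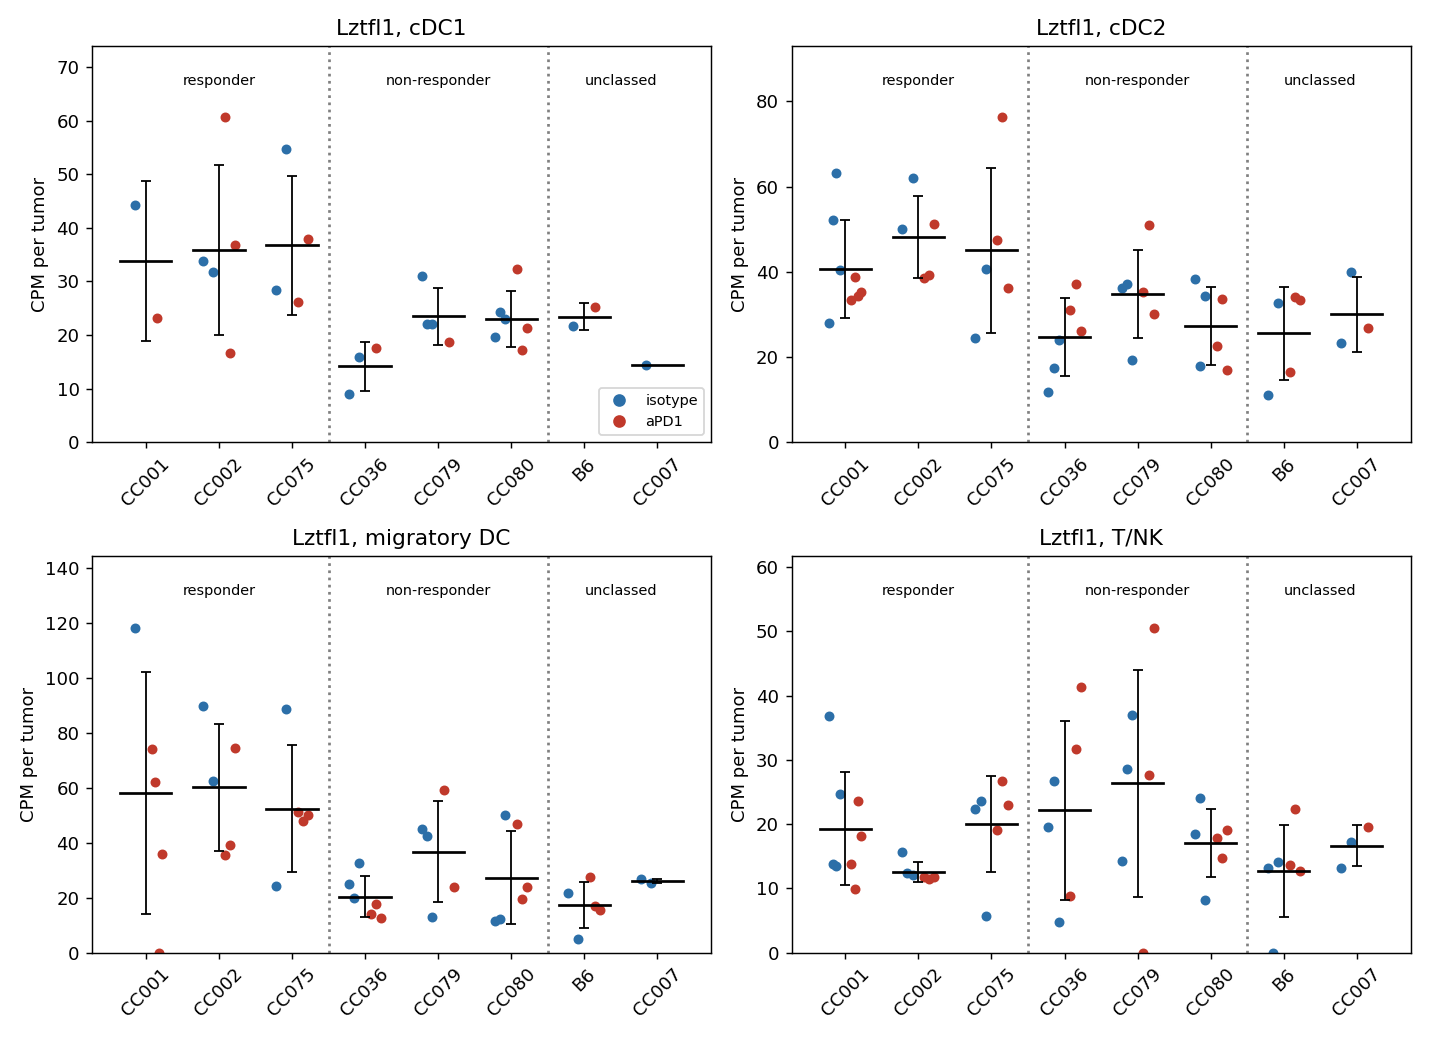
Lztfl1 in CPM, 1 point per tumor with at least 20 cells of the type (blue isotype, red aPD1), in cDC1-like, cDC2-like, migratory dendritic and T/NK-like cells, with mean and SD by strain. Responder strains have the higher means in the dendritic cells, while in T/NK-like cells the tumors of both classes overlap.

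Lztfl1 in cDC1-like cells had a median of 33.9 CPM (16.6 to 60.6) over 11 responder tumors and 21.4 (9.04 to 32.4) over 13 non-responder tumors. In cDC2-like cells the medians were 39.9 CPM (24.5 to 76.2, 18 tumors) and 30.6 (11.8 to 51.0, 18 tumors), and in migratory dendritic cells 51.2 (0 to 118, 15 tumors) and 23.8 (11.5 to 59.4, 17 tumors). In each of these cell types the ranges overlapped. The T/NK medians of Lztfl1 were 14.7 CPM (5.68 to 36.8) and 19.3 (0 to 50.6).

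Fyco1 went the same way as Lztfl1 in macrophages and, unlike Lztfl1, also in T/NK-like cells. In macrophages Fyco1 had a median of 26.6 CPM (22.7 to 35.6) over 20 responder tumors and 19.8 (15.03 to 29.7) over 18 non-responder tumors. Only 4 responder tumors lay above all non-responder tumors, while 15 of the 18 non-responder tumors lay below all responder tumors. The count of 4 was set by the doubted CC080 aPD1 tumor of pool 4 at 29.7 CPM, and without the doubted tumors 12 of 19 responder tumors lay above all 16 non-responder tumors (highest 24.3). As mean ± SD, macrophage Fyco1 was 26.5 ± 1.87 CPM (n = 8) in CC001, 24.8 ± 2.35 (n = 6) in CC002, 30.2 ± 5.19 (n = 6) in CC075, 20.6 ± 2.03 (n = 6) in CC036, 18.8 ± 2.03 (n = 6) in CC079, 21.9 ± 4.13 (n = 6) in CC080 and 17.7 ± 0.666 (n = 6) in B6. The CC007 tumors had 23.2 and 19.6 CPM of Fyco1 after isotype, and 16.1 and, in the tumor of 53 cells with 2 Fyco1 UMIs, 43.0 after aPD1.

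The fitted class difference of Fyco1 was 0.46 ± 0.06 (SE) in macrophages and 0.83 ± 0.14 in T/NK-like cells on the log2 scale. Within pools Fyco1 was higher in the responder tumor in 15 of 16 pairs in macrophages (median log2 difference 0.35) and in 15 of 16 in T/NK-like cells (median 0.65). It was higher in responder tumors in 9 of 10 macrophage clusters, the exception being cluster 15 at -0.02, and in all 7 T/NK-like clusters with at least 30 Fyco1 UMIs in the classed tumors, by 0.28 to 0.93. T/NK Fyco1 was 69.1 ± 17.2 CPM (n = 6) in CC075, 58.1 ± 18.2 (n = 6) in CC002 and 57.01 ± 10.6 (n = 8) in CC001, against 46.6 ± 11.1 (n = 6) in CC036, 33.3 ± 4.93 (n = 6) in CC080 and 32.2 ± 12.3 (n = 6) in CC079. CC036 and CC001 differed by about the SD within each of them.

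Cxcr6 in T/NK-like cells differed among the non-responder strains, while the responder strains lay closer together. CC079 ranged from 40.7 (2 Cxcr6 UMIs) to 92.2 CPM with a median of 65.4, and CC080 from 47.6 to 180 with a median of 91.3. CC036, the other non-responder strain, ranged from 101 to 230 CPM with a median of 171. Among the responders the medians of Cxcr6 were 129 CPM in CC001 (78.2 to 184), 129 in CC002 (113 to 185) and 178 in CC075 (118 to 220). CC036 was therefore as high as CC075, and the low values of the non-responder class came from CC079 and CC080. B6 ranged from 95.7 to 296 CPM with a median of 194, the highest being the doubted isotype tumor of pool 7. The CC007 tumors had 116, 151 and 167.

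The fitted class difference of Cxcr6 was 0.58 ± 0.16 (SE), and 13 of 16 pairs within pools were higher in the responder tumor. That SE leaves out the spread between strains. Mean log2 CPM of Cxcr6 was 7.06 in CC001, 7.16 in CC002 and 7.44 in CC075, against 7.25 in CC036, 5.92 in CC079 and 6.58 in CC080. The make-up of the T/NK-like cells differed between the strains as well. Cluster 3, among the highest in Cxcr6, made up a median of 36.4% of T/NK-like cells in CC001, 32.5% in CC002 and 33.5% in CC075, against 11.1% in CC036, 3.73% in CC079 and 13.6% in CC080, with 28.5% in B6 and 15.3% in CC007. Foxp3-rich cluster 8, low in Cxcr6, made up a median of 22.2% in CC001, 20.2% in CC002 and 8.15% in CC075, against 12.8% in CC036, 54.9% in CC079 and 28.7% in CC080, with 8.28% in B6 and 9.18% in CC007. Its share was highest in CC079 and CC080, the strains lowest in Cxcr6, and cluster 10, high in Cxcr6, had its highest median share in CC036 (8.14%). The part of this make-up in the Cxcr6 values over all T/NK-like cells was not tested. Within cluster 3, Cxcr6 was higher in the responder tumor in 0 of 4 pairs, from 2 pools, and its medians were 211 CPM (97.3 to 314) over 19 responder tumors and 258 (208 to 343) over 6 non-responder tumors. The ranges overlapped, and the higher Cxcr6 of responder tumors over all T/NK-like cells was not seen within cluster 3. The strains compared were not the same, since in cluster 3 the non-responder tumors were 2 of CC036 and 4 of CC080. CC079, lowest in Cxcr6 over all T/NK-like cells, had no tumor with enough cells there. Fyco1 in cluster 3 was higher in the responder tumor in 4 of 4 pairs, with medians of 60.8 CPM (25.4 to 125) and 37.8 (16.3 to 65.2). Of these 4 pairs 2 held a doubted CC080 tumor, and without the doubted tumors the medians of Fyco1 were 60.4 CPM over 18 responder and 52.2 over 4 non-responder tumors.

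**Figure D4:**
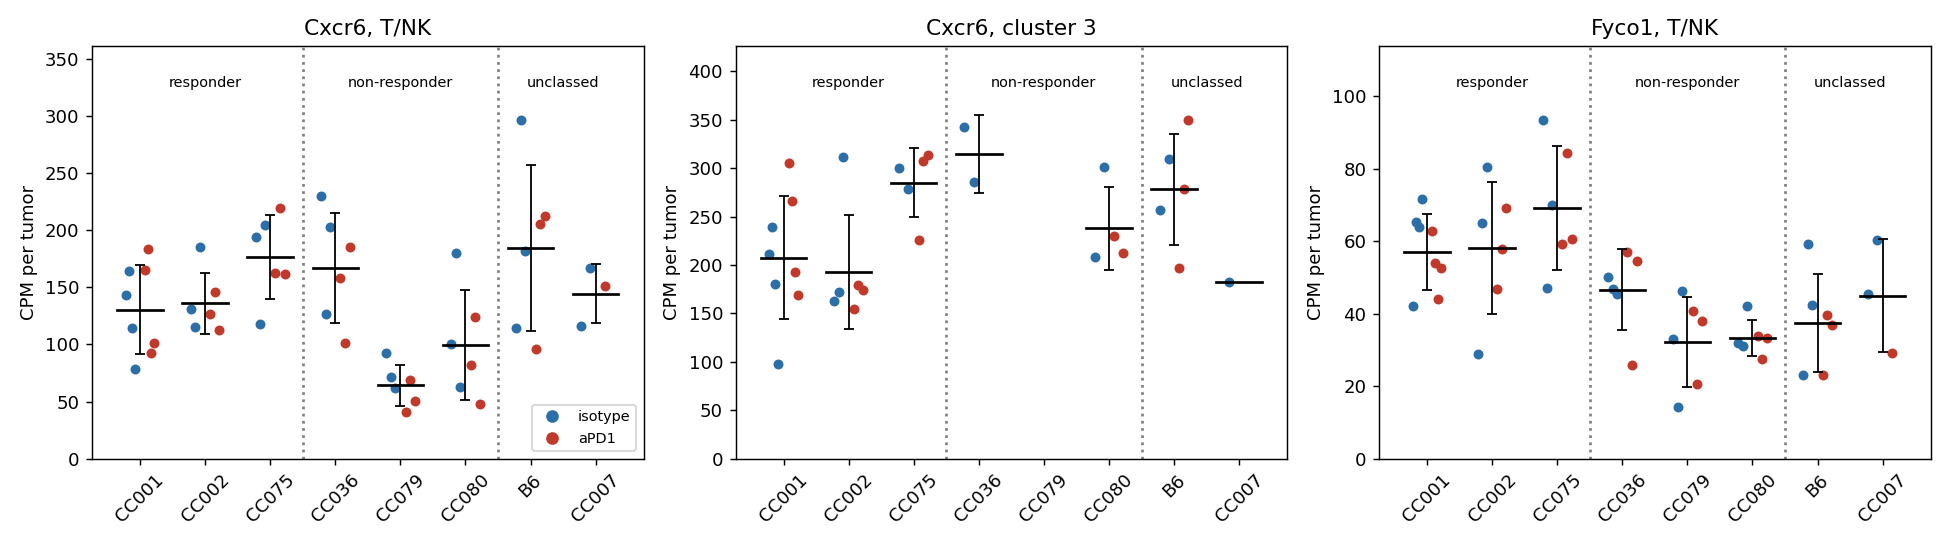
Cxcr6 in all T/NK-like cells (left) and in cluster 3 (middle) and Fyco1 in all T/NK-like cells (right), in CPM, 1 point per tumor with at least 20 such cells (blue isotype, red aPD1), with mean and SD by strain. CC079 has the lowest Cxcr6 mean over all T/NK-like cells and no tumor with enough cells in cluster 3, where the classes overlap.

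Limd1 and Sacm1l differed little between the classes. In macrophages the class difference was -0.12 ± 0.06 (SE) for Limd1 and -0.11 ± 0.05 for Sacm1l on the log2 scale. Xcr1 and Ccr9 were near 1 CPM there. Macrophage Xcr1 had a median of 1.12 CPM (0 to 2.75) in responder and 0.237 (0 to 1.54) in non-responder tumors, with 3 and 2 tumors at 0, beside medians of Clec9a alone of 7.33 CPM (1.01 to 23.2) and 2.65 (1.12 to 13.7). The part of cDC1 transcripts in the Xcr1 values was not tested. Macrophage Ccr9 had medians of 1.60 CPM (0.715 to 2.42) and 1.04 (0.440 to 2.05). Of the 6 members tested in macrophages, 3 (Ccr9, Lztfl1 and Xcr1) were higher by at least 0.5, beside 4.57% of all genes tested, and none was lower by that much, beside 4.1%. Fyco1, at 0.46, lay just outside this threshold. In T/NK-like cells 2 of 5 members (Fyco1 and Cxcr6) were higher by that much, beside 4.87% of genes, and none was lower, beside 6.72%. Lztfl1 was chosen on this contrast and the others for lying near it, with these results known, so these counts support nothing.

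Of the other genes around the locus, Ccr2, a receptor of monocyte chemokines, was lower in responder tumors by -0.47 ± 0.11 (SE) in macrophages and by -0.86 ± 0.14 in T/NK-like cells. Kif15, a mitotic kinesin, differed by -0.51 ± 0.19 and -0.21 ± 0.17. Lars2, beside Limd1, differed by 0.19 ± 0.14 in both. In macrophages these flanking genes had values from -0.51 to 0.19. The strain means of macrophage Ccr2 overlapped between the classes, with a log2 CPM of 8.68 in CC075 and 8.66 in CC079. In T/NK-like cells the non-responder means of Ccr2 ran from 6.90 in CC036 to 7.95 in CC079. The highest responder mean there was 6.80, in CC002. The part of the make-up of the T/NK-like cells in the Ccr2 values was not tested.

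**Figure D5:**
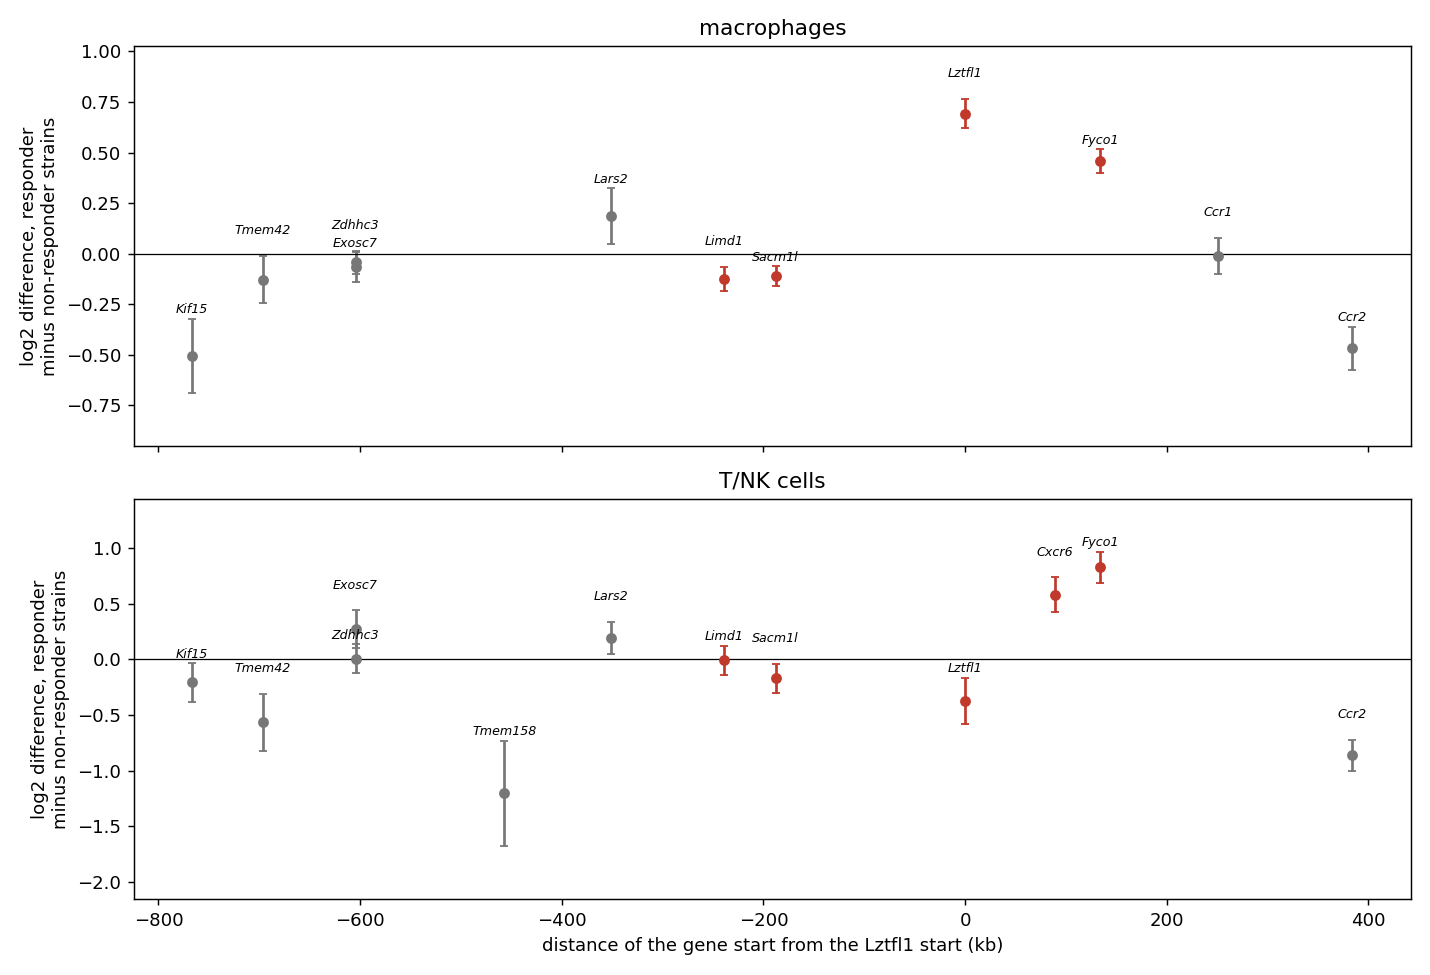
Class difference (responder minus non-responder strains, log2, point and SE) of each gene against the distance of its start from that of Lztfl1 in kb, in macrophages (top) and T/NK-like cells (bottom), members in red and other listed genes in grey (not every listed gene is shown). Genes of mean log2 CPM under 2, or with no finite SE, are left out, Xcr1 and Ccr9 among them. In macrophages Lztfl1 at 0.69 and Fyco1 at 0.46 are the highest points. The SEs leave out the spread between strains of a class.

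The first tested question was whether aPD1 changed the members within 48 h. In macrophages none of the 6 members tested passed an adjusted p of 0.05 (edgeR's quasi-likelihood test with Benjamini-Hochberg adjustment), beside 0% of 13010 genes, of which 457 had an unadjusted p under 0.05, and DESeq2 called 0 genes as well. Lztfl1 differed by 0.10 ± 0.07 (SE, log2; adjusted p = 1.00) and Limd1 by 0.08 ± 0.06 (adjusted p = 1.00). Without pool 7 the Lztfl1 value was -0.0025.

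Among T/NK-like cells 0 of 5 members passed, beside 0% of 9685 genes (349 with an unadjusted p under 0.05 and 0 by DESeq2). Cxcr6 differed by -0.16 ± 0.14 and Fyco1 by -0.20 ± 0.13 (adjusted p = 1.00 for both). In cluster 3 none of 4 members passed, beside 0% of 6189 genes (297 with an unadjusted p under 0.05, 0 by DESeq2 and 12 with pool as a block), with Cxcr6 at -0.05 ± 0.14 (adjusted p = 0.994). In cDC1-like cluster 6 none of 5 passed, beside 0% of 6162 genes (336 with an unadjusted p under 0.05, 0 by DESeq2 and 2 with pool as a block). Limd1 had the smallest p there, at 0.42 ± 0.16 (adjusted p = 0.896), and was higher after aPD1 in 9 of 10 pairs of tumors of the same strain and pool. Xcr1 differed by -0.09 ± 0.20 (adjusted p = 0.9904), and by 0.082 with pool as a block.

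The second question was whether the effect of aPD1 differed between the classes. None of the 6 members in macrophages and none of the 5 in T/NK-like cells passed, beside 0% of genes in each, of which 1268 and 451 had an unadjusted p under 0.05 and DESeq2 called 1 and 0. The macrophage values of Lztfl1 and Limd1 were those with the smallest p. For Lztfl1 the aPD1 effect was larger in responders by 0.34 ± 0.14 (SE, log2; adjusted p = 0.460). Lztfl1 was higher after aPD1 in 10 of 10 responder pairs of the same strain and pool, by 0.02 to 0.47, and in 3 of 9 non-responder pairs, from -0.26 to 0.28. In CPM, macrophage Lztfl1 after isotype and aPD1 was 29.7 and 35.4 in CC001, 34.3 and 38.5 in CC002 and 31.4 and 39.1 in CC075, against 20.05 and 20.7 in CC036, 25.9 and 21.8 in CC079 and 23.4 and 23.1 in CC080. All 3 responder means were higher after aPD1, but the difference between the classes failed the correction over all genes.

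For Limd1 the macrophage difference in effect was 0.29 ± 0.12 (adjusted p = 0.456), with 8 of 10 responder pairs and 2 of 9 non-responder pairs higher after aPD1. Cxcr6 in T/NK-like cells was higher after aPD1 in 5 of 10 responder pairs and in 0 of 9 non-responder pairs, where the log2 differences ranged from -1.16 to -0.04. The value of -1.16, from CC079, rests on 2 Cxcr6 UMIs in the aPD1 tumor. The fitted difference in effect of Cxcr6 was 0.49 ± 0.31 (adjusted p = 1.00).

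The third question was whether strains of the same class differed from each other. In macrophages 2 of the 6 members tested passed, beside 42.8% of all genes. Limd1 had a largest difference between strains of a class of 0.35 (log2, adjusted p = 0.0102) and Fyco1 of 0.29 (adjusted p = 0.0449). Lztfl1 did not pass, with 0.26 (adjusted p = 0.191), nor did Ccr9, with 0.68 (adjusted p = 0.0553), and Sacm1l, with 0.14 (adjusted p = 0.309). By strain, macrophage Limd1 was 39.5 ± 4.67 CPM (n = 8) in CC001, 38.8 ± 9.53 (n = 6) in CC002 and 48.0 ± 4.10 (n = 6) in CC075, and 53.7 ± 6.06 (n = 6) in CC036, 41.4 ± 3.63 (n = 6) in CC079 and 49.0 ± 5.44 (n = 6) in CC080. With pool as a block neither call held (adjusted p = 0.770 for Limd1 and 0.203 for Fyco1), and 739 genes were called in place of 5567, 724 of them in both. Limd1 was also lost without pool 2 (adjusted p = 0.0884), and Fyco1 was lost in 9 of the 12 fits that left out a pool.

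Of the T/NK members, Cxcr6 was the 1 of 5 members that passed, beside 18.1% of all genes, with a largest difference of 1.32 (log2, adjusted p = 0.0123). With pool as a block Cxcr6 still passed (2.89, adjusted p = 0.000359), and it was lost without pool 5, 8 or 10 (adjusted p = 0.0647, 0.0554 and 0.0538). Limd1 (0.80, adjusted p = 0.153), Lztfl1 (0.73, adjusted p = 0.275) and Fyco1 (0.50, adjusted p = 0.487) did not pass. Within cluster 3, where only CC001, CC002 and CC075 could be compared, none of 4 members passed, beside 5.72% of genes, and Cxcr6 had 0.50 (adjusted p = 0.273). Within cluster 6 none of 5 passed, beside 1.87%, and Xcr1 had 0.55 (adjusted p = 0.905). By strain, Xcr1 in cDC1-like cells lay between 169 ± 71.9 CPM (n = 4) in CC075 and 239 ± 74.7 (n = 2) in CC001 among strains with at least 2 tumors.

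CC007 and B6, the strains without a class, were compared on their own, and no member passed. In macrophages Lztfl1 differed, as CC007 minus B6, by 0.31 ± 0.16 (log2, adjusted p = 0.669) and Fyco1 by 0.10 ± 0.14 (adjusted p = 0.973), with 0 of 6 members passing beside 0.93% of genes. For T/NK-like cells 0 of 5 passed beside 0.176% of genes, with Sacm1l at 0.60 ± 0.29 (adjusted p = 0.703) and Cxcr6 at -0.23 ± 0.32 (adjusted p = 0.960). Without pool 7 the Lztfl1 value was -0.088, and the CC007 aPD1 group included the tumor of 53 cells.

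Genes around and downstream of the members were taken from working lists. With pool as a block, which left 5.68% of all genes called between strains of a class in macrophages, none of the list genes was called, so the macrophage counts that follow hold only without the block. Differences between strains of a class were called in macrophages for 4 of 11 flanking genes tested, beside the 42.8% of all genes, among them Lars2, which encodes the mitochondrial leucyl-tRNA synthetase (largest difference 1.20), Exosc7, an RNA exosome subunit (0.44), and Ccr2 (0.48). The flanking genes Ccrl2, Ltf and Rtp3 lie more than 12.6 Mb from Lztfl1 in the mouse. Of the genes of PI4P turnover, the lipid that SAC1 dephosphorylates, 6 of 7 were called, led by Pi4k2b (0.63), Osbp (0.42) and Pi4k2a (0.54). Of the LIMD1 partners 4 of 7 were called, led by the Hippo kinase Lats2 (0.87), Vhl (0.58) and Ago2 (0.54). Of the BBSome list 1 of 8 was called (Bbs4, 0.72), of the autophagosome transport list 0 of 8, and of the ligands Ccl25 (0.47) and Xcl1 (2.89, at 1.20 CPM pooled) but not Cxcl16. The median over a list of the largest difference was 0.44 for the flanking genes, 0.50 for the BBSome, 0.26 for the autophagosome list, 0.38 for PI4P turnover and 0.58 for the LIMD1 partners, beside 0.46 over all genes.

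Among T/NK-like cells 4 of 12 flanking genes were called, beside the 18.1% of all genes: Ccr2 (1.07), Lars2 (0.95), Ccr1 (2.38) and Tmem158 (2.23). Ccr1 and Tmem158 were low there, with strain means of log2 CPM from 1.56 to 3.33 and from 1.26 to 3.01. Of PI4P turnover 2 of 7 were called, Pi4ka (1.09) and Pi4k2a (1.13), and of the BBSome, autophagosome, LIMD1 partner and ligand lists none was. With pool as a block Ccr2 was the 1 listed gene still called in T/NK-like cells, beside 3.3% of all genes. In cluster 3 Xcl1 was called (3.45), and with the block Xcl1 and Lars2 were, beside 6.35%. In macrophages and T/NK-like cells no listed gene passed for aPD1 against isotype, for its difference between the classes or for CC007 against B6. The median log2 difference for aPD1 in macrophages was 0.00 over the flanking genes, 0.08 over the BBSome list, 0.04 over the autophagosome list, 0.01 over PI4P turnover and 0.01 over the LIMD1 partners, beside -0.00 over all genes.

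By tumor, the macrophage genes whose levels were most like those of Lztfl1 over 48 tumors included Leprot (Pearson r = 0.77) and Cyb5a (0.74). For Fyco1 they were Tmem51os1 (0.72), Trim5 (0.71) and Acaa1b (0.69), for Sacm1l Ctnnb1 (0.76), Cry2 (0.73) and Kif1b (0.73), and for Limd1 Slc22a23 (0.84), Heg1 (0.83) and 8030462N17Rik (0.83). For Cxcr6 over the T/NK-like cells of 47 tumors they were Sub1 (0.80), Rgs16 (0.80) and Gm44174 (0.78). No member was among the 3 genes most like another member. Tumors share strain, pool and depth, and these values carry no test.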

How the data were processed

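The data were UMI counts of single cells from 48 MC38 tumors in 12 pooled 10x 5′ libraries. The authors aligned reads of every strain to GRCm38 (GENCODE vM23) with Cell Ranger count, removed cells above 15% mitochondrial or 45% ribosomal counts, and deposited raw UMI counts per gene and cell with strain, treatment, hashtag and cluster number (Seurat 5.0.1). Their treatment of doublets is not given in the sources used here, and no doublet caller was run. Labels name strains and treatments but not the classes, which are the study's. The members, lists and comparisons were chosen with earlier results of these data known.

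Counts were summed per tumor and cell type (at least 20 cells) and tested with edgeR 4.0.16 (quasi-likelihood, TMM, filterByExpr, 1 mean per strain and treatment), adjusted over all genes, at 0.05. Fits held 48 tumors for macrophages, 47 for T/NK-like cells, 31 for cluster 3 and 27 for cluster 6. In cluster 3 the aPD1 effect was averaged over B6, CC001, CC002, CC075 and CC080, and only responder strains could be compared with each other. CC007, with 1 tumor in cluster 6, was left out of the contrasts there. Class differences came from the same fits, read as no test, with SEs that leave out the spread between strains of a class. Tumors of the same strain and treatment are taken as separate animals, apart from the shared identifier. A cluster took the name of a class when at least 3 of its markers and 50% of its list reached 100 CPM, taking the class with the highest mean score, and stayed unnamed where another class led its top genes or a pair of lists was nearly complete. The markers include Adgre1, Apoe, Lyz2, Csf1r, C1qa, C1qb and Cd68 for macrophages and Cd3e, Cd3d, Trac, Nkg7, Cd2, Lck and Thy1 for T/NK-like cells.

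Named genes were the members, their ligands, called flanking genes (at most 5 per comparison) and called genes of 4 lists (at most 3 each), by smallest p. Alternatives were DESeq2 (1.42.0) and its size factors, no low-count filter, pool as a block, leaving out the doubted tumors, and leaving out each pool. A pool is a shared library by the labels, and tumors of the same pool deviated together (mean r of deviations 0.144 in macrophages, 0.0772 in T/NK-like cells, 0.0969 in cluster 3 and 0.0495 in cluster 6). The fits were tested first on simulated macrophage counts, with 200 genes changed 2-fold for each test and no effect of pool. The aPD1 test called 196 of its 200 and 15 others (7.11% of its calls). The test of strains within classes called 170 of its 200 and 7 others (3.95%). Tumors of a pool that deviate together were not simulated. Hashtag oligo sequences were left aside, and a few genes that the rule names are not reported here.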

Additional observations from a re-analysis of the deposited data

Results flagged for a closer look

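Among 20 groups of at least 4 tumors that were examined for a tumor far from the rest, 1 was found. Only CC001 had 4 tumors of each treatment, so the groups were the same CC001 tumors over several genes and cell types. They are not independent, and tumors of the other strains were not examined in this way. Sacm1l in T/NK-like cells of the CC001 isotype group was 78.9 CPM in 1 of 4 tumors, against 30.2 in the lowest and a median of 32.7, a gap of 0.926 of the group's range. No member moved one way after aPD1 in every pair of one class and the other way in every pair of the other, among 21 cases examined.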

How the results depend on the processing

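The treatment comparisons of the members kept their side of the threshold under every alternative fitted, and most of the values that changed were counts of genes. DESeq2 called 1 gene for the treatment by class comparison in macrophages and 67 between strains in cluster 6. Of the members differing between strains in macrophages, 1 was called by DESeq2, 1 with its size factors, 1 without the doubted tumors, and 0 without the low-count filter or with pool as a block. Without that filter T/NK-like cells gave 8 genes for aPD1, 32 for treatment by class and 96 for CC007 against B6, cluster 3 gave 9 for aPD1 and 572 between strains, and cluster 6 gave 6 and 347. With pool as a block, which pairs tumors of a library, 739 genes differed between strains in macrophages, 320 in T/NK-like cells and 40 in cluster 6, aPD1 gave 12 genes in cluster 3 and 2 in cluster 6, and Xcr1 in cluster 6 turned to 0.082.

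Leaving out each pool in turn gave 0 to 1 genes for treatment by class in macrophages, 0 to 3 members between strains (Ccr9 was called without pools 7 and 9), 2 to 122 genes for CC007 against B6 (2 without pool 7 and 74 without pool 6), and values of Lztfl1 from -0.0025 to 0.14 for aPD1 and from -0.088 to 0.38 for CC007 against B6, the lowest of both without pool 7. T/NK-like cells gave 776 to 2022 genes between strains (776 without pool 9 and 1125 without pool 2) and 0 to 1 members. Cluster 3 gave 0 to 1 genes for aPD1, with Cxcr6 from -0.11 to 0.037 (above 0 without pool 4), and 135 to 601 genes between strains (135 without pool 9 and 601 without pool 8). Cluster 6 gave 62 to 134 genes between strains (62 without pool 3). The cause of these changes was not tested. Low UMI counts limit Lztfl1 in T/NK-like cells and Xcr1 and Ccr9 in macrophages.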
